A study of Mus musculus with 4 samples.

Results

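The genes described here encode molecular chaperones: the heat shock proteins of the cytosol with their cochaperones, and the chaperones, folding enzymes and stress sensors of the endoplasmic reticulum (ER). They were taken by name from the probe sets annotated with exactly 1 gene symbol. The families were Hspa, Hspb, Hsph1, Hsp90, Dnaja, Dnajb, Dnajc, Pdia, Cct and Bag1 to Bag6, joined by Calr, Canx, Hyou1, Sdf2l1, Creld2, Xbp1, Atf6, Ern1, Manf, Herpud1, Edem1 and Sel1l, with the mitochondrial Hspa9 left out. Each gene was read on its brightest probe set by the mean over all arrays. This gave 85 of the 10926 genes measured: 51 cytosolic genes, 29 ER genes and 5 J proteins of mitochondria, which were kept apart from both. The 51 take in every J protein not listed for the ER or mitochondria, whatever its place in the cell. The 85 genes have 162 probe sets in all, of 23599 on the arrays besides controls.

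The samples were wild-type mouse brown adipocytes, differentiated from preadipocytes that expressed either the long noncoding RNA Blnc1 or an empty vector, and harvested on day 6 of differentiation. There were 2 Blnc1 arrays and 2 vector arrays. The vector type, its promoter and the origin of the preadipocytes are not given in the sources used here, and neither is whether the replicates, which the labels call biological, came from separate transductions. With 4 arrays the precision is limited, and the p-values rest on a spread that may be technical.

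Chaperones bind unfolded proteins and help them reach or keep their shape. In the cytosol, Hsp70 proteins take up clients with the help of J proteins, nucleotide exchange factors such as Hsp110 and BAG proteins release them, and Hsp90 and the ring-shaped CCT chaperonin finish particular clients; heat shock factors raise many of these genes when proteins misfold. In the ER, secreted and membrane proteins fold with the Hsp70 protein BiP (Hspa5), the lectins calnexin and calreticulin and the disulfide isomerases. The sensors Ire1 (Ern1), Atf6 and Perk raise these genes in the unfolded protein response, in which Ire1 splices the Xbp1 messenger. Brown adipocytes carry a large load of lipid enzymes, membrane proteins and secreted factors, which are made at the ER.

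Several ER chaperone promoters carry a shared control sequence, the ER stress element. It is shown because classical targets of Atf6 and Xbp1 carry it, though a gene with these letters need not be such a target. The element was searched as CCAAT, any 9 bases and CCACG, on both strands of the RefSeq promoter windows (GRCm38.p6), which run from 250 bases before to 50 bases after a gene's start. Windows were found for 69 of the 85 genes. Of 87 windows 7 held it (8.05%), against 39 of all 32851 windows in the table (0.119%). The 7 stretches below are written 5′ to 3′ on the gene's strand, with the element in capitals; in Calr and Creld2 it reads as the reverse complement, and a second match in Hsp90b1 is not printed.
Hspa5, chr2:34772000-34772068, plus strand: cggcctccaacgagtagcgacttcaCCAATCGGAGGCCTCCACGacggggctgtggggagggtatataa
Hsp90b1, chr10:86705613-86705681, minus strand: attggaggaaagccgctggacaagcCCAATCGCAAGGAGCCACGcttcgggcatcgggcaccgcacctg
Dnajc3, chr14:118937802-118937870, plus strand: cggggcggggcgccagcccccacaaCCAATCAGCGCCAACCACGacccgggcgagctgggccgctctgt
Pdia6, chr12:17266466-17266534, plus strand: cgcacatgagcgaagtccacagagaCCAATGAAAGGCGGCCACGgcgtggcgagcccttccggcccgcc
Canx, chr11:50325775-50325843, minus strand: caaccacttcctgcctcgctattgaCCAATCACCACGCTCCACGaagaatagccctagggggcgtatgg
Calr, chr8:84847050-84847118, minus strand: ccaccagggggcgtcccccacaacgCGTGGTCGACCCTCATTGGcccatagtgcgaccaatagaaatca
Creld2, chr15:88819495-88819563, plus strand: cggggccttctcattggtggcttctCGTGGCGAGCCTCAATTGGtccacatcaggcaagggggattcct
In Hspa5 the element began 65 bases before the annotated start, and in the other 6 between 98 and 212 bases before it. A match describes letters only and says nothing of whether a factor bound there.

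No chaperone gene passed the test in Blnc1 cells against vector cells. The values are log2 expression after RMA, and they were compared across all 23599 probe sets with limma and Benjamini-Hochberg adjustment at a threshold of 0.05. By that rule 0 of the 85 genes were called, against 134 of all 10926 genes (1.23%; 0.86% higher and 0.366% lower). Of their 162 probe sets 0 were called, against 0.928% of all probe sets, and the lowest adjusted p of any of these probe sets was 0.108 (limma). At an unadjusted p under 0.05 there were 24 of the 85 genes, 12 higher and 12 lower in Blnc1 cells, against 20.7% of all genes (11.7% higher and 9.08% lower). Both Blnc1 arrays lay on one side of both vector arrays for 55 of the 85 (24 higher and 31 lower), against 53.2% of all genes (28.3% higher and 24.9% lower). The median log2 fold change (Blnc1 over vector) was -0.039 over the 51 cytosolic genes and -0.052 over the 29 ER genes, beside 0.0073 over all genes. Without Blnc1 replicate 2 the cytosolic median was -0.0092 and without Blnc1 replicate 1 it was -0.074. Negative values made up 31 of 51 cytosolic and 18 of 29 ER genes, against 48.4% of all genes, and positive ones the rest, against 51.6%.

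The intervals give a range of sizes for each gene taken singly. They rest on a spread between arrays that may be technical, and say little of genes hardly measured, such as Pdia3. The 95% confidence interval of the fold change lay within 2-fold in either direction for all 85 genes, and within 1.5-fold for 81 of them, against 98.9% and 89.9% of all genes. The largest single value was that of Hspa1b, a 1.32-fold lower reading in Blnc1 cells (log2 fold change -0.40). The smallest change that the test called in any gene was 1.45-fold, and the value of every chaperone gene was smaller. That is the smallest value among called genes and not a limit of detection.

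**Figure D1:**
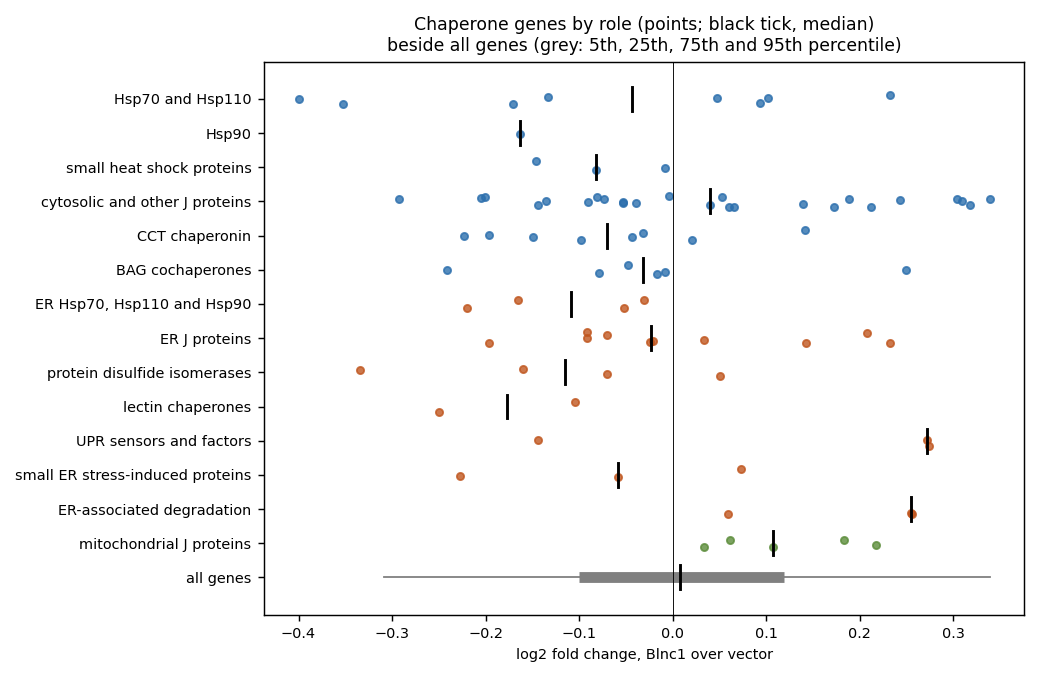
Log2 fold change (Blnc1 over vector, horizontal axis) of each of the 85 genes by role, with blue points for cytosolic, orange for ER and green for mitochondrial members, a black tick at each median, and a grey box (25th to 75th percentile) with line (5th to 95th percentile) for all 10926 genes. Roles scatter around 0, with all 4 ER Hsp70, Hsp110 and Hsp90 genes below 0 and all 3 ER-associated degradation genes and all 5 mitochondrial J proteins above it.

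The cytosolic Hsp70 and Hsp110 genes had values on both sides of 0, 4 negative and 4 positive. Hspa1b, the stress-inducible Hsp70, read 8.43 and 8.12 in Blnc1 cells, against 8.77 and 8.58 in vector cells. Its log2 fold change was -0.40 ± 0.13 (SE), with a limma adjusted p of 0.184. Both Blnc1 arrays were below both vector arrays, and replicate 2 was the lower one in either group. Without Blnc1 replicate 2 the value was -0.24, and the other arrays left out in turn gave -0.56 to -0.31. Its further probe sets stood at -0.30 and -0.35. The near-identical Hspa1a was not analysed here, and a probe can bind the messengers of both copies. Hsph1, an Hsp110 exchange factor of Hsp70, read 7.43 and 7.05 in Blnc1 cells, against 7.60 and 7.59 in vector cells (log2 fold change -0.35 ± 0.13 SE, limma adjusted p = 0.230). The groups did not overlap, but the Blnc1 arrays differed by -0.38 (replicate 2 minus replicate 1), more than the group means did. Without Blnc1 replicate 2 the value was -0.16, and without Blnc1 replicate 1 it was -0.54.

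Hspa8, the constitutive Hsp70 of all cells, read 11.85 and 11.80 in Blnc1 cells, against 11.95 and 11.96 in vector cells (log2 fold change -0.13 ± 0.076 SE). Its interval ran from 0.801-fold to 1.04-fold, and its probe set is of the kind prone to cross-hybridisation; the further probe sets stood at -0.11, -0.13 and -0.023. Hspa2, a form best known from testis, read 5.52 and 5.37 in Blnc1 cells, against 5.15 and 5.28 in vector cells, below the array medians in both groups. Hsp90aa1, the stress-inducible cytosolic Hsp90, read 9.68 and 9.69 in Blnc1 cells, against 9.84 and 9.86 in vector cells (log2 fold change -0.16 ± 0.075 SE, limma adjusted p = 0.311). Hsp90ab1 was not analysed here. The small heat shock proteins Hspb1, Hspb8 and Hspb2, which hold unfolded proteins without using ATP, stood at -0.15, -0.082 and -0.0086. On these probe sets the groups did not overlap for Hspb1 or Hspb8, and overlapped for the dim Hspb2. The further probe sets of Hspb1 stood at -0.0059 and -0.13, with overlapping groups in both. Those of Hspb8 stood at 0.00081, with overlapping groups, and at -0.12, with groups apart.

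J proteins hand clients to Hsp70 and start its ATP cycle. Of the 25 cytosolic and other J proteins 13 were positive and 12 negative, with a median of 0.040. Dnaja1, a cytosolic partner of Hspa8, had the smallest p of all 85 genes. It read 9.34 and 9.30 in Blnc1 cells, against 9.63 and 9.60 in vector cells. The log2 fold change was -0.29 ± 0.076 (SE, limma adjusted p = 0.132), and the interval ran from 0.718-fold to 0.929-fold. Replicate 2 minus replicate 1 was -0.038 in Blnc1 cells and -0.026 in vector cells, and the further probe set stood at -0.39. In the opposite direction, Dnajc7, a J protein that also binds Hsp90, read 9.26 and 9.41 in Blnc1 cells, against 8.96 and 9.07 in vector cells (log2 fold change 0.32 ± 0.091 SE, limma adjusted p = 0.152). Dnajb2, which carries ubiquitin-binding motifs, read 7.01 and 6.90 in Blnc1 cells, against 6.51 and 6.72 in vector cells (log2 fold change 0.34 ± 0.10 SE, limma adjusted p = 0.164). Neither group pair overlapped. Dnajb1, the stress-inducible J protein, overlapped on its brighter probe set (log2 fold change -0.0035), while its dimmer probe set stood at 0.24 ± 0.082 (SE, limma adjusted p = 0.197). The other 21 of these J proteins, whose names are given with their values in the plot of intervals, lay between -0.21 and 0.31.

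The 8 CCT genes encode subunits of the chaperonin that folds actin and tubulin, and 6 of them were negative (median -0.070). Cct3 read 10.26 and 10.23 in Blnc1 cells, against 10.48 and 10.46 in vector cells (log2 fold change -0.22 ± 0.075 SE, limma adjusted p = 0.198). Its 4 further probe sets were negative too, between -0.30 and -0.053. Cct6a stood at -0.20 ± 0.077 (SE) and Cct4 at 0.14 ± 0.077 (SE), with groups apart in both. Cct2, Cct5, Cct7 and Cct8 lay between -0.15 and -0.032. Cct6b, the other positive gene, read 4.15 and 4.21 in Blnc1 cells, against 4.15 and 4.16 in vector cells, below the array medians. Tcp1, a further subunit that the name rule leaves out, overlapped at -0.035 ± 0.087 (SE). The BAG proteins release clients from Hsp70, and their 6 genes had a median of -0.032. Bag4 stood at -0.24 ± 0.076 and Bag2 at 0.25 ± 0.095 (SE); the groups were apart in both, and the further probe set of Bag4 stood at -0.21. Bag3, which acts in autophagy of misfolded proteins and is a heat shock factor target, overlapped: 6.44 and 6.57 in Blnc1 cells, against 6.39 and 6.65 in vector cells.

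**Figure D2:**
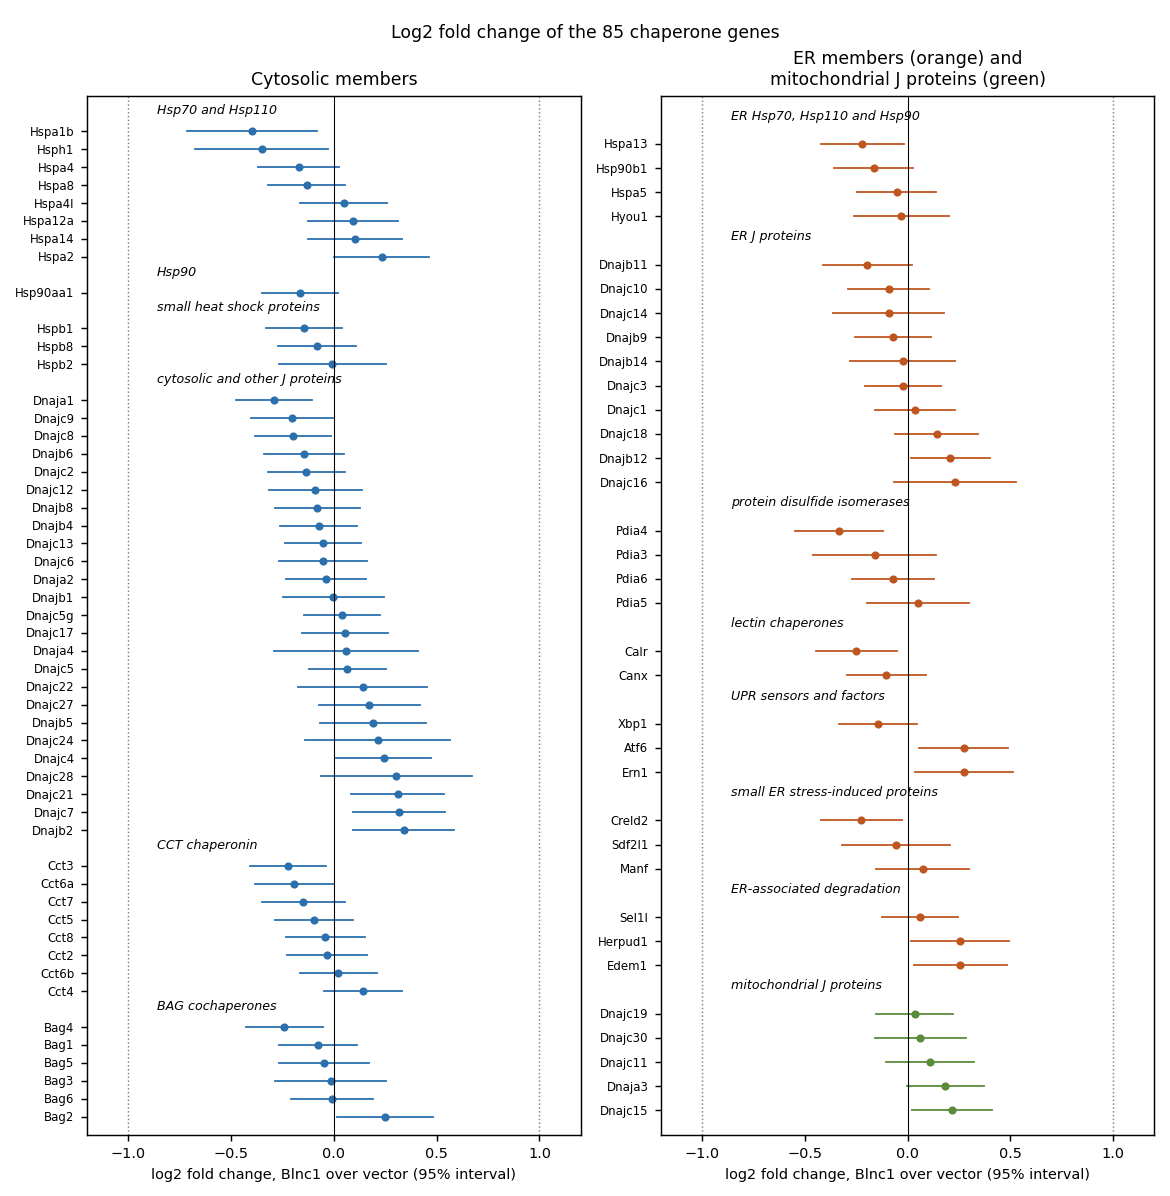
Log2 fold change (Blnc1 over vector, horizontal axis, in log2 units) of each gene with its 95% confidence interval from limma, by role; the dotted lines mark 2-fold in either direction. No interval reaches a dotted line, and 24 of the 85 leave out 0.

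In the ER the Hsp70, Hsp110 and Hsp90 chaperones had 4 negative values of 4, with a median of -0.11. Hspa5 (BiP), the central ER chaperone and the usual gauge of the unfolded protein response, read 10.34 and 10.40 in Blnc1 cells, against 10.39 and 10.45 in vector cells. The groups overlapped, the log2 fold change was -0.052 ± 0.078 (SE, limma adjusted p = 0.776), and the interval ran from 0.844-fold to 1.10-fold. The further probe set of Hspa5 stood at 0.028. Hsp90b1 (Grp94), the Hsp90 of the ER, read 10.57 and 10.58 in Blnc1 cells, against 10.70 and 10.78 in vector cells (log2 fold change -0.17 ± 0.078 SE, limma adjusted p = 0.326). Hspa13, an ER-associated Hsp70, stood at -0.22 ± 0.082 (SE) and its further probe set at -0.25. Hyou1, the Hsp110 of the ER, overlapped at -0.031 ± 0.094 (SE), while its further probe set stood at -0.19 ± 0.079 (SE) with groups apart.

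The lectin chaperones hold glycoproteins while they fold. Calr, calreticulin, read 10.39 and 10.48 in Blnc1 cells, against 10.66 and 10.71 in vector cells. Its log2 fold change was -0.25 ± 0.081 (SE, limma adjusted p = 0.184), both Blnc1 arrays were below both vector arrays, and the further probe set stood at -0.29. Canx, calnexin, read 10.55 and 10.63 in Blnc1 cells, against 10.68 and 10.70 in vector cells (log2 fold change -0.10 ± 0.079 SE).

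Of the disulfide isomerases, Pdia4 (ERp72) had the lowest value of all ER members. It read 7.16 and 7.22 in Blnc1 cells, against 7.45 and 7.60 in vector cells (log2 fold change -0.33 ± 0.088 SE, limma adjusted p = 0.133; interval 0.683-fold to 0.920-fold). Pdia6 stood at -0.070 ± 0.082 (SE). Pdia3 (ERp57), the partner of the lectins, was read only on a probe set at 4.02 and 4.10 in Blnc1 cells, against 4.38 and 4.05 in vector cells. These readings lie close to the bottom of the arrays' scale, so that the gene's level was hardly measured.

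The ER J proteins work with BiP. Of 10 measured, 6 were negative and 4 positive (median -0.023). Dnajb9 (ERdj4), an Xbp1 target that restrains Ire1, stood at -0.071 ± 0.076 (SE). Dnajc3 (p58IPK) stood at -0.021 ± 0.075 and overlapped. Dnajb11 (ERdj3), a secretable BiP partner, read 8.11 and 7.96 in Blnc1 cells, against 8.26 and 8.21 in vector cells (log2 fold change -0.20 ± 0.088 SE). Dnajb12 and Dnajc16, J proteins of the ER membrane, stood at 0.21 ± 0.078 and 0.23 ± 0.12 (SE). Their further probe sets overlapped, at 0.25 for Dnajb12 and -0.10 for Dnajc16.

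Of the 3 small proteins that ER stress induces, 2 were negative and 1 positive. Creld2 read 6.91 and 6.81 in Blnc1 cells, against 7.08 and 7.10 in vector cells (log2 fold change -0.23 ± 0.080 SE, limma adjusted p = 0.211). Sdf2l1, at -0.059 ± 0.11, and the secreted factor Manf, at 0.073 ± 0.093 (SE), overlapped.

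The few sensors and degradation genes among the members lay mostly on the other side of 0. Atf6, the sensor that is cut in the Golgi and moves to the nucleus, read 7.36 and 7.24 in Blnc1 cells, against 7.09 and 6.97 in vector cells (log2 fold change 0.27 ± 0.089 SE, limma adjusted p = 0.188). The groups were apart on this probe set, but the further probe set overlapped at -0.0070. Ern1 (Ire1), the sensor that splices Xbp1, read 7.71 and 7.86 in Blnc1 cells, against 7.43 and 7.60 in vector cells (log2 fold change 0.27 ± 0.098 SE, limma adjusted p = 0.214), and its further probe sets stood at 0.27 and 0.0095. Xbp1 itself read 10.05 and 10.11 in Blnc1 cells, against 10.21 and 10.23 in vector cells (log2 fold change -0.14 ± 0.077 SE, limma adjusted p = 0.380). All 4 of its probe sets were negative, the further ones between -0.22 and -0.055. These values sum both Xbp1 messengers and carry no information on splicing.

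Edem1, which picks misfolded glycoproteins for degradation, read 8.97 and 9.07 in Blnc1 cells, against 8.68 and 8.84 in vector cells (log2 fold change 0.26 ± 0.092 SE, limma adjusted p = 0.217). Its further probe set stood at 0.36 ± 0.083 (SE) and had the lowest adjusted p of all member probe sets, 0.108 (limma). Herpud1, an ER membrane protein of the degradation complex, read 7.94 and 7.92 in Blnc1 cells, against 7.57 and 7.78 in vector cells (log2 fold change 0.25 ± 0.098 SE, limma adjusted p = 0.239), with 0.27 on the further probe set. Without vector replicate 1 the value of Herpud1 was 0.15, and so was the median of these 3 genes, against 0.25 with all arrays. Sel1l, the scaffold of that complex, stood at 0.059 ± 0.076 (SE). Its 4 further probe sets disagreed, 1 positive at 0.15 and 3 negative down to -0.35.

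**Figure D3:**
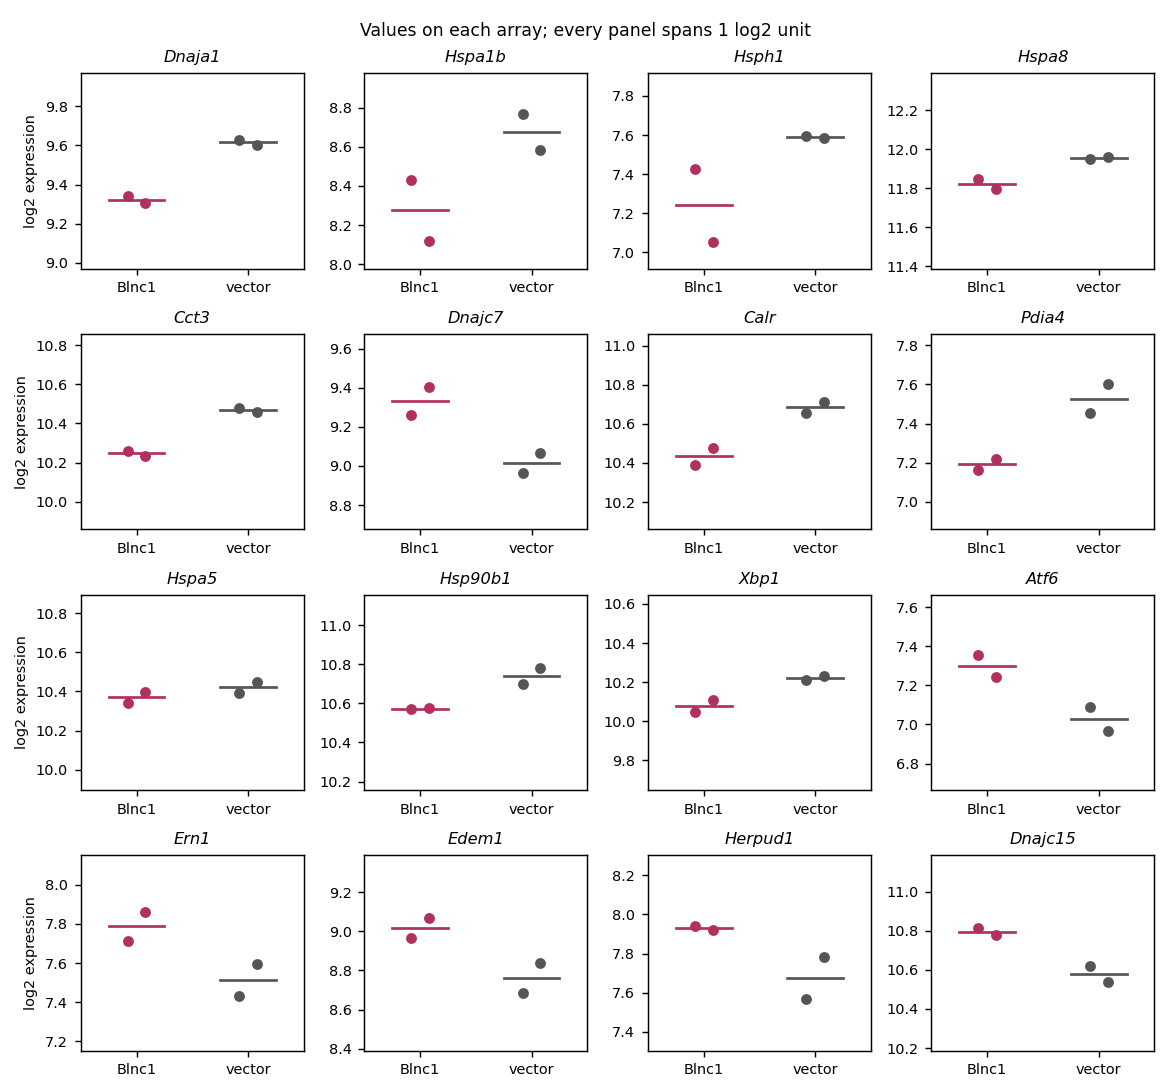
Log2 expression on each array (points; vertical axis, log2 units, spanning 1 unit in every panel) with group means (lines), Blnc1 arrays left and vector arrays right, for 16 of the genes described. Dnaja1, Calr, Pdia4 and Cct3 are lower in both Blnc1 arrays, Atf6, Ern1, Edem1 and Herpud1 are higher in both, and Hspa5 overlaps.

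The 7 genes whose promoter stretches are printed above were all negative, between -0.25 (Calr) and -0.021 (Dnajc3), with a median of -0.10 and none past the test. Of the other 9 genes tested whose promoter window holds the same element, 7 were positive and 2 negative, with a median of 0.12 and none past the test. The heat shock element was searched as GAA, TTC and GAA, or TTC, GAA and TTC, each with any 2 bases between the triplets, on both strands. It lay in windows of Dnajb6 and Hsph1 alone among the members, 2 of the 69 genes with a window. By windows it was 4 of 87 (4.60%) against 0.603% of all windows. Several windows of a gene count separately, and those of Dnajb6 hold the same site. In Dnajb6 it lay before the start, and it is shown as the cytosolic counterpart of the stretches above.
Dnajb6, chr5:29735827-29735889, plus strand: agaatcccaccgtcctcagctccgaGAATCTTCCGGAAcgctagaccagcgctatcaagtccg
In Hsph1 the match lay after the annotated start and is not printed. Both genes were negative, Dnajb6 at -0.14 on its brightest probe set and Hsph1 at -0.35. The 3 further probe sets of Dnajb6 were positive, between 0.016 and 0.081, with overlapping groups. The 52 other genes tested with this element had a median of 0.014. A shorter sequence bound by Atf6 and Xbp1, TGACGTGG, was in no member's window and in 0.676% of all windows.

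The 5 mitochondrial J proteins were all positive, with a median of 0.11. Dnajc15, a J protein of the inner membrane import motor, read 10.81 and 10.78 in Blnc1 cells, against 10.62 and 10.54 in vector cells (log2 fold change 0.22 ± 0.079 SE, limma adjusted p = 0.220). Dnaja3, the J partner of the mitochondrial Hsp70, stood at 0.18 ± 0.077 (SE) and its further probe set at 0.28. Dnajc11, of the inner membrane's contact site complex, stood at 0.11 ± 0.088, and Dnajc19 and Dnajc30 at 0.033 and 0.062.

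A gene's several probe sets give a further reading of the same arrays. Of the 85 genes 45 had 77 further probe sets, of which 58 had the sign of the brightest one and 19 the opposite sign. Among the genes with an unadjusted p under 0.05 it was 18 of 20, and among the others 40 of 57. A pair of genes named here after their values were seen had dim further probe sets far from the brightest one. Dnajc21, a J protein of ribosome maturation, stood at 0.31 ± 0.092 on its brightest probe set and at -0.14 ± 0.13 on such a further one (SE). Hspa14, a ribosome-associated Hsp70, stood at 0.10 ± 0.093 and at -0.34 ± 0.083 (SE). The next brightest probe sets, which were not dim, overlapped at 0.026 ± 0.083 for Dnajc21 and at -0.019 ± 0.077 for Hspa14 (SE).

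**Figure D4:**
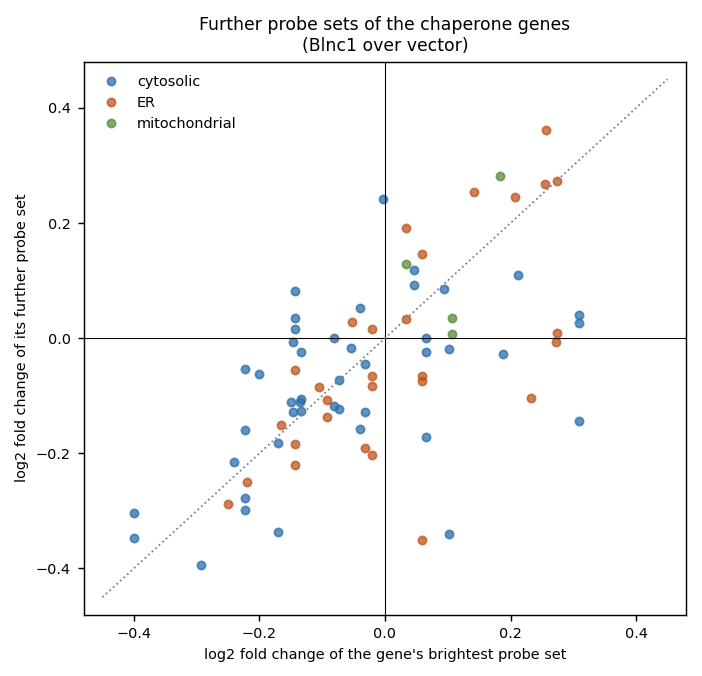
Log2 fold change (Blnc1 over vector) of each of the 77 further probe sets (vertical axis) against that of the brightest probe set of the same gene (horizontal axis); the dotted line marks equal values. 58 points lie in the quadrants of equal sign.

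How the spread was estimated decided whether single chaperone genes were called. The test above shares 1 prior spread among all probe sets. When that prior was allowed to depend on the level (limma with an intensity trend), 15 of the 85 genes (17.6%) passed, against 1237 of all genes (11.3%). Lower in Blnc1 cells were 10 of them, Hspa1b, Hspa8, Dnaja1, Dnajc8, Dnajc9, Cct3, Cct6a, Hsp90b1, Pdia4 and Calr, against 4.94% of all genes. Higher were 5, Dnajc7, Dnajc21, Edem1, Dnajc15 and Dnaja3, against 6.38% of all genes. These shares do not compare like with like, because the chaperone genes are brighter. Of the 85 genes 18 lay below the median level of all probe sets, against 4409 of all 10926 genes. The median standard error with the trend was 0.081 for the 85 genes and 0.107 for all genes. Dnaja1 had the lowest adjusted p in that fit, 0.00567, followed by Calr with 0.00613 (limma with an intensity trend). The fold changes are the same in either fit; the standard error of Dnaja1 was 0.053 with the trend and 0.076 without. Where the dimmer 50% of probe sets were left out before the fit, Dnaja1 alone of the 67 members kept passed (limma adjusted p = 0.0438), against 9.39% of all genes kept.

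Other genes of the same pathways gave no call either, against 1.23% of all genes called, and 11.7% higher and 9.08% lower at an unadjusted p under 0.05. Of 12 measured cytosolic cochaperones and related genes 0 passed (limma; 2 lower and 0 higher at an unadjusted p under 0.05), with a median of -0.027. The heat shock factors Hsf1, Hsf2 and Hsf4 were looked for but are not among the genes measured. The small heat shock protein Cryab, alpha-B crystallin, stood at -0.42 ± 0.10 and the Hsp70 cochaperone St13 at -0.28 ± 0.083 (SE). Of 29 ER folding, redox, glycan and degradation genes 0 passed (limma; 5 lower and 2 higher at an unadjusted p under 0.05), with a median of -0.035. The disulfide isomerases Txndc5 and P4hb stood at -0.34 ± 0.077 and -0.29 ± 0.076, the collagen chaperone Serpinh1 at -0.36 ± 0.11, and the BiP exchange factor Sil1 at 0.29 ± 0.077 (SE). The ER oxidase Ero1a stood at 0.42 ± 0.15 (SE). Degradation genes of this list lay on both sides of 0. Edem2 stood at -0.21 ± 0.078 and Os9 at -0.18 ± 0.089, Derl1 at 0.18 ± 0.078 and Erlec1 at 0.18 ± 0.083 (SE). Of 10 stress signalling genes 0 passed (limma; 1 lower and 4 higher at an unadjusted p under 0.05). Ddit3 (Chop), which the Perk branch induces, read 9.71 and 9.95 in Blnc1 cells, against 9.09 and 9.34 in vector cells (log2 fold change 0.62 ± 0.13 SE, limma adjusted p = 0.0880). Trib3 stood at 0.60 ± 0.19 and the phosphatase subunit Ppp1r15a at 0.59 ± 0.22 (SE). In all 3 genes replicate 2 was the higher one in either group. Atf4 overlapped at -0.023 ± 0.077, and Eif2ak3 (Perk) stood at 0.21 ± 0.086 (SE).

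The arrays also differed in ways that went with the groups. The probe sets for spiked-in hybridization controls, 18 in number, all read lower in Blnc1 cells, by a median of -0.27 (Blnc1 minus vector). For Gapdh, the excess of the 3′ over the 5′ control, a sign of RNA quality, was 0.29 and 0.27 on Blnc1 arrays, against 0.38 and 0.45 on vector arrays. The Y-linked Eif2s3y, Uty and Kdm5d were lower in Blnc1 cells (log2 fold changes of -1.18, -1.02 and -0.87) and Xist was higher (0.55), all past the test. The part of these in the chaperone values was not tested. The labelled cell type was checked against its markers. Adipoq, Fabp4, Pparg, Cidea and Prdm16 were above the array medians in both groups. Ucp1 read 7.97 and 8.05 in Blnc1 cells, against 5.01 and 5.01 in vector cells, below the array medians there. Cidea read 10.37 and 10.56 in Blnc1 cells, against 7.37 and 7.31 in vector cells. Prdm16 read 6.31 and 6.38 in Blnc1 cells, against 6.17 and 6.08 in vector cells. Of the markers of other cells, 2 macrophage, 1 endothelial and 2 skeletal muscle genes were measured, all below the array medians with overlapping groups. Of 2 preadipocyte markers measured, Dlk1, at -0.42 ± 0.079 (SE), was lower in both Blnc1 arrays and did not pass. Pdgfra, at -0.093 ± 0.15 (SE), overlapped. Both markers were below the array medians in both groups. In these bulk samples, a shift in the mix of cells and a shift in the RNA of each cell cannot be told apart.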

How the data were processed

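Biotin-labelled RNA was hybridised to single-colour Affymetrix perfect-match arrays, 1 sample per array, per the labels' protocols. The authors deposited log2 expression values made by RMA; affy and limma are named as well, per the submitters' processing notes, with no versions or settings. Their range of 2.70 to 13.29 shows the log2 scale. RMA understates fold changes at low signal.

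The 35 control probe sets were left out. Of 23599 probe sets 16692 had 1 gene symbol in GEO's platform annotation, 372 had several and 6535 none, and only the first kind was named. Limma 3.58.1 (R 4.3.3) fitted a linear model with moderated variances to all probe sets, two-sided and without a covariate, with Benjamini-Hochberg adjustment over all of them. The fit was tested on simulated data in 5 runs. It called 0% of the simulated 1.2-fold changes, 0% of the 1.5-fold changes and 90.2% of the 2-fold changes. A count of 0 genes called therefore says little of changes under 2-fold. Members, role lists and named genes (any that pass, the 3 smallest p per role and a fixed set of 30, of which 28 were measured) were chosen with earlier results of these data known. Lists are described by counts and medians, without a test. Promoter sequences are RefSeq's. The alternatives changed the variance prior, the scaling, the filters, the summary per gene, the threshold and the arrays used, or added the replicate number as a block.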

Additional observations from a re-analysis of the deposited data

How the results depend on the processing

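The count of 0 chaperone genes past the test held in every alternative run except a pair: with an intensity trend in the variance prior 5 passed higher and 10 lower, and without the dimmer 50% of probe sets 1 passed lower. Over all probe sets 219 passed, against 2174 with the trend, 334 without the dimmest 25%, 1020 without the dimmer 50%, 958 at an adjusted p under 0.1, 30 with the replicate block, and 3 to 38 when 1 array was left out (3 without either Blnc1 array). The replicate block changed no call of a chaperone gene; same-numbered arrays deviated together only weakly (r = 0.089 over all probe sets and 0.16 over the chaperone genes, 2 pairs), and no source says that the numbers pair samples. The count over all probe sets could not be had with a gene's probe sets averaged. Among the medians of log2 fold changes, that of the ER genes was -0.068 after median centring, -0.070 with a gene's probe sets averaged, and -0.046 to -0.023 when 1 array was left out. The cytosolic Hsp70 and Hsp110 median was -0.13 without the dimmest 25% and -0.17 without the dimmer 50% of probe sets, which also put the cytosolic and other J proteins at -0.021 and the disulfide isomerases at -0.20. Hsp90aa1 stood at -0.18 after median centring. The ER Hsp70, Hsp110 and Hsp90 genes had -0.18 without probe sets prone to cross-hybridisation. The ER J proteins had -0.032 after repeated quantile normalization, -0.039 after median centring and -0.048 with probe sets averaged, which put the sensors with Xbp1 at 0.13. Leaving out 1 array gave medians of -0.074 to -0.0092 for the cytosolic genes, -0.070 to -0.055 for the cytosolic Hsp70 and Hsp110 genes, -0.00020 to 0.043 for the cytosolic and other J proteins, -0.11 to -0.037 for the CCT genes, 0.15 to 0.33 for the ER-associated degradation genes, -0.10 to 0.0036 for the BAG genes, -0.036 to 0.039 for the ER J proteins, -0.17 to -0.031 for the disulfide isomerases, 0.19 to 0.22 for the sensors with Xbp1, -0.16 to 0.022 for the small ER stress-induced proteins and 0.033 to 0.16 for the mitochondrial J proteins. Some signs turned. With probe sets averaged Sel1l stood at -0.057 and Dnajb1 at 0.12. With 1 array left out the log2 fold changes were -0.32 to 0.0017 for Pdia3, -0.16 to 0.047 for Sdf2l1, -0.10 to 0.085 for Hspb2, -0.13 to 0.066 for Hyou1, -0.093 to 0.086 for Dnajb1 and -0.14 to 0.11 for Bag3. They moved without a change of sign for Dnajc16 (0.087 to 0.38), Bag2 (0.15 to 0.35), Dnajb11 (-0.27 to -0.12) and Dnajc11 (0.033 to 0.18), among others. The cause of these shifts was not tested. Readings close to the bottom of the scale, as for Pdia3 and Hspb2, limit what these arrays show of those genes.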
